A study of Mus musculus with 15 samples.

Results

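Cytosolic ribosomal protein genes were described across 4 groups of sorted mouse bone marrow cells. A gene belonged to the set when a probe set carried a single annotated symbol of the form Rpl or Rps with a number (with or without a final a or x), or Rplp0, Rplp1, Rplp2 or Rpsa. Where a gene had several such probe sets, the brightest over all arrays was used. This gave 53 genes of 19296 in the table, 20 of the small subunit and 33 of the large subunit. Of 79 ribosomal proteins of the mouse cytosol, another 16 had only probe sets that name several genes, 2 (Rps3a1 and Fau) had a probe set of their own under a symbol outside the pattern, and 8 were not analysed here.

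The cells came from wild type C57Bl/6 mice without treatment, and every sample was labelled male. Haematopoietic stem cells (HSC), which sustain blood formation, were sorted as lineage-negative cells with c-Kit, Sca-1 and CD150 and without Flk2 and CD48, and granulocyte/macrophage progenitors (GMP), which give rise to neutrophils and monocytes, as lineage-negative cells with c-Kit, CD34 and FcγR and without Sca-1. The ages were 6 to 12 weeks (young) and 22 to 30 months (old). HSC were on 3 arrays from old and 5 from young mice, and GMP on 3 from old and 4 from young. The series concerns replication stress in ageing stem cells, per its title. Whether an array holds RNA of 1 mouse or of a pool is not stated in the labels, so p-values reflect only the spread between arrays.

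Ribosomal proteins assemble on ribosomal RNA in the nucleolus to form the small subunit, which reads the messenger RNA, and the large subunit, which joins amino acids. Their messengers carry a run of pyrimidines at the cap, the terminal oligopyrimidine (TOP) motif, through which mTOR signalling and Larp1 set their translation. Stem cells of the blood make protein slowly, and loss of 1 copy of a ribosomal protein gene impairs red cell formation in Diamond-Blackfan anaemia.

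Few ribosomal protein messengers passed a test between the 4 groups. In old HSC 4 of the 53 (7.55%) were lower than in young HSC, near the 9.22% of all genes called lower, and 0 were higher, where 2.25% of all were. The largest change was in Rpl14, at 1.83-fold. Between old and young GMP 0 of the 53 and 0 of all genes passed the test, and between HSC and GMP only Rpl34 passed, in young mice. A gene was called where limma's adjusted p was under 0.05, with Benjamini-Hochberg adjustment over all 19296 genes. Differences are in log2 units, given with the standard error of the fit.

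The start sites of the genes that these results turn on are printed to show where pyrimidine runs lie relative to the start. Each sequence holds 15 bases before and 15 from the RefSeq start (GRCm38.p6) on the gene's strand, with the longest run of C and T in capitals.
Rpl14, chr9:120571502-120571531, plus strand: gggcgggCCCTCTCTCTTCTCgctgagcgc
Rps10, chr17:27635230-27635259, minus strand: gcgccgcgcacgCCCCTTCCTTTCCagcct
Rpl22, chr4:152325711-152325740, plus strand: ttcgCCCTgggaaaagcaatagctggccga
Rps13, chr7:116334176-116334205, minus strand: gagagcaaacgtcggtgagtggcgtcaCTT
Rpl34, chr3:130730384-130730413, minus strand: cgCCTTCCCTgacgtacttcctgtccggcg
Rps6, chr4:86857353-86857382, minus strand: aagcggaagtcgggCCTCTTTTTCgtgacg
Rpl7a, chr2:26910792-26910821, plus strand: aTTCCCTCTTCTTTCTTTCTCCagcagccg
The run covers the first transcribed base, the 16th letter, at Rpl14 (14 bases), Rps10 (13), Rps6 (10) and Rpl7a (21). At Rpl34 the run of 8 bases and at Rpl22 the run of 4 end before the start used. A messenger that begins there does not hold them. At Rpl34 a shorter run of C and T follows the first base, inside the messenger. At Rps13 the longest run is 3 bases and lies inside the messenger. The starts used lie inside the annotated gene for Rpl22, by 1290 bases, and for Rpl7a, by 122. Of the 53 genes, 42 had a promoter in the RefSeq table. A longest run of 8 or more bases that covers the first base stood in 10 of these 42 (23.8%), against 3.34% of the 17492 protein-coding genes with a promoter. Anywhere in the window, such a run stood in 14 of the 42 (33.3%), with 4 of these wholly before the start, against 11.7% of all. On the opposite strand, anywhere in the window, it stood in 2.38% of the 42 and 12.3% of all. The letters CTTT stood on the gene's strand in 13 of the 42 (31.0%, against 10.3% of all), and on the opposite strand in 2 (4.76%, against 9.98%). CTTT can lie inside the longer run, and a match is a description of the window, not a functional site.

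The stem cell markers fixed for HSC averaged 9.004 to 9.61 on the HSC arrays and 6.82 to 7.11 on the GMP arrays, and the GMP markers 10.12 to 10.62 on GMP and 6.82 to 7.05 on HSC arrays. Xist, the X-inactivation RNA, was between 5.46 and 5.84 on the old arrays. On 4 of 5 young HSC arrays and 3 of 4 young GMP arrays it read 8.92 to 11.51, against their label of male. High Xist was thus seen only on young arrays, so a difference with age cannot be told apart from a difference with sex. The part of sex in the age comparisons was not tested. Rpl10, Rpl36a and Rps4x are X-linked, and none of the 3 was called in any comparison of the main fit, which is no test of sex. With array weights Rpl10 was called lower in old HSC (-0.23 ± 0.07, limma adjusted p = 0.0111). Those weights put old HSC replicate 1 at 7.47, against 0.41 and 0.49 for replicates 2 and 3. The interquartile range of an array, a measure of how widely its values spread, was 1.87 to 2.23 log2 in old HSC, 2.11 to 2.62 in young HSC, 2.16 to 2.37 in old GMP and 2.03 to 2.50 in young GMP. Young HSC replicate 4 and young GMP replicate 4 had the lowest range of their groups. Of 42 measured markers of 8 other blood and stromal cell types, 2 were higher and 2 lower with age in HSC. Young HSC replicate 4 stood apart here too: its macrophage markers averaged 7.42, against 6.56 to 6.75 on the other young HSC arrays, and its HSC markers (9.004) and megakaryocyte markers (7.70) were the lowest of the group. The part of these values in the results that turn on this array was not tested.

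The ribosomal protein genes, each read by its brightest probe set, gave some of the brightest signals on every array. That choice raises their level, since 36 of the 53 had several probe sets. The dimmest probe set of Rpl19 averaged 3.36. The median of the 53 stood at 12.51 to 12.76 log2 in old HSC, 12.66 to 12.93 in young HSC, 12.64 to 12.75 in old GMP and 12.50 to 12.89 in young GMP. On each array this median lay at or above the 99.70th percentile of all genes. Brightness also depends on the probes, so it does not order genes by amount of RNA. Rpl21 was the dimmest, with 2.57 to 4.33 over the 15 arrays. Many of these genes have processed pseudogenes of nearly the same sequence, and probes cannot tell such copies apart.

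The spread between replicate arrays is given as a median over genes. The median standard deviation of the 53 reached 0.10 for old HSC, 0.13 for young HSC, 0.06 in old GMP and 0.13 in young GMP. Over all genes it was 0.17, 0.19, 0.13 and 0.15. The widest spread in young GMP was that of Rps9, a small-subunit protein, at 0.51, where replicate 4 read 11.60 and the others 12.57 to 12.69.

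Rpl14, a protein of the large subunit, fell in old HSC. Its log2 values were 10.76, 10.43 and 11.07 in old HSC and 11.46, 11.86, 11.85, 11.12 and 11.82 in young HSC. In GMP they were 11.10, 10.94 and 11.32 in old mice and 11.49, 11.43, 11.34 and 11.01 in young mice. The HSC groups did not overlap, although old HSC replicate 3 and young HSC replicate 4 nearly met, and the GMP groups overlapped. The difference in HSC was -0.87 ± 0.18 (SE, n = 3 and 5, limma adjusted p = 0.00758). In GMP it was -0.20 ± 0.19 (n = 3 and 4, limma adjusted p = 1). The test of the difference between the 2 age effects gave -0.67 ± 0.26 (limma adjusted p = 0.391) and did not pass. The fall in HSC was -0.71 ± 0.19 without old HSC replicate 2 (limma adjusted p = 0.0684) and -0.41 ± 0.16 with array interquartile range added as a covariate (adjusted p = 0.35), where the call was lost. It held in the other 23 of 25 alternatives.

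Rps10, a protein of the small subunit head that is mutated in some patients with Diamond-Blackfan anaemia, read 11.84, 11.91 and 11.99 in old HSC. In young HSC it read 12.48, 12.50, 12.59, 11.90 and 12.72. Replicate 4 of young HSC fell among the old arrays, and the other 4 lay above all of them. The difference was -0.52 ± 0.16 (limma adjusted p = 0.0381), and -0.66 ± 0.12 without that replicate (adjusted p = 0.00113). Leaving out the lowest young array had to enlarge the difference. The call held in 16 of 25 alternatives. It was lost at -0.29 ± 0.12 after quantile normalization, at -0.18 ± 0.15 with the covariate, with only the HSC arrays fitted, and without replicate 1 or 2 of old HSC or 1, 2, 3 or 5 of young HSC. The 2nd probe set of Rps10 was lower too (-0.63 ± 0.19, adjusted p = 0.0391 over 20728 probe sets).

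Rpl22, a large-subunit protein that is dispensable for translation and needed in early lymphocyte development, read 10.54, 10.66 and 10.78 in old HSC and 11.12, 11.21, 11.21, 10.72 and 11.24 in young HSC. Again only young HSC replicate 4 overlapped the old arrays. The difference was -0.44 ± 0.12 (limma adjusted p = 0.0305). The call held in 16 of 25 alternatives and was lost in the same 9 as that of Rps10, with -0.18 ± 0.10 after quantile normalization and -0.23 ± 0.13 with the covariate. Rpl22 also had the smallest unadjusted p of the 53 for age in GMP. There it read 10.63, 10.61 and 10.77 in old mice and 10.93, 11.18, 11.07 and 10.92 in young mice, without overlap, a difference of -0.35 ± 0.13 that did not pass (limma adjusted p = 0.96).

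Rps13, a small-subunit protein, read 11.80, 11.71 and 12.07 in old HSC and 12.31, 12.41, 12.39, 11.90 and 12.45 in young HSC. The difference was -0.44 ± 0.14 (limma adjusted p = 0.046), with young HSC replicate 4 again inside the old range. The call held in 10 of 25 alternatives. It was -0.19 ± 0.09 after quantile normalization and -0.11 ± 0.12 with the covariate, and leaving out most single arrays, of GMP too, ended it. Without young HSC replicate 4 the 4 called genes passed with larger differences, -0.53 to -0.99. That array was the lowest young HSC array for all 4, so leaving it out had to enlarge the differences. Without old HSC replicate 2, 0 of the 53 passed, where 1.44% of all genes were lower.

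**Figure D1:**
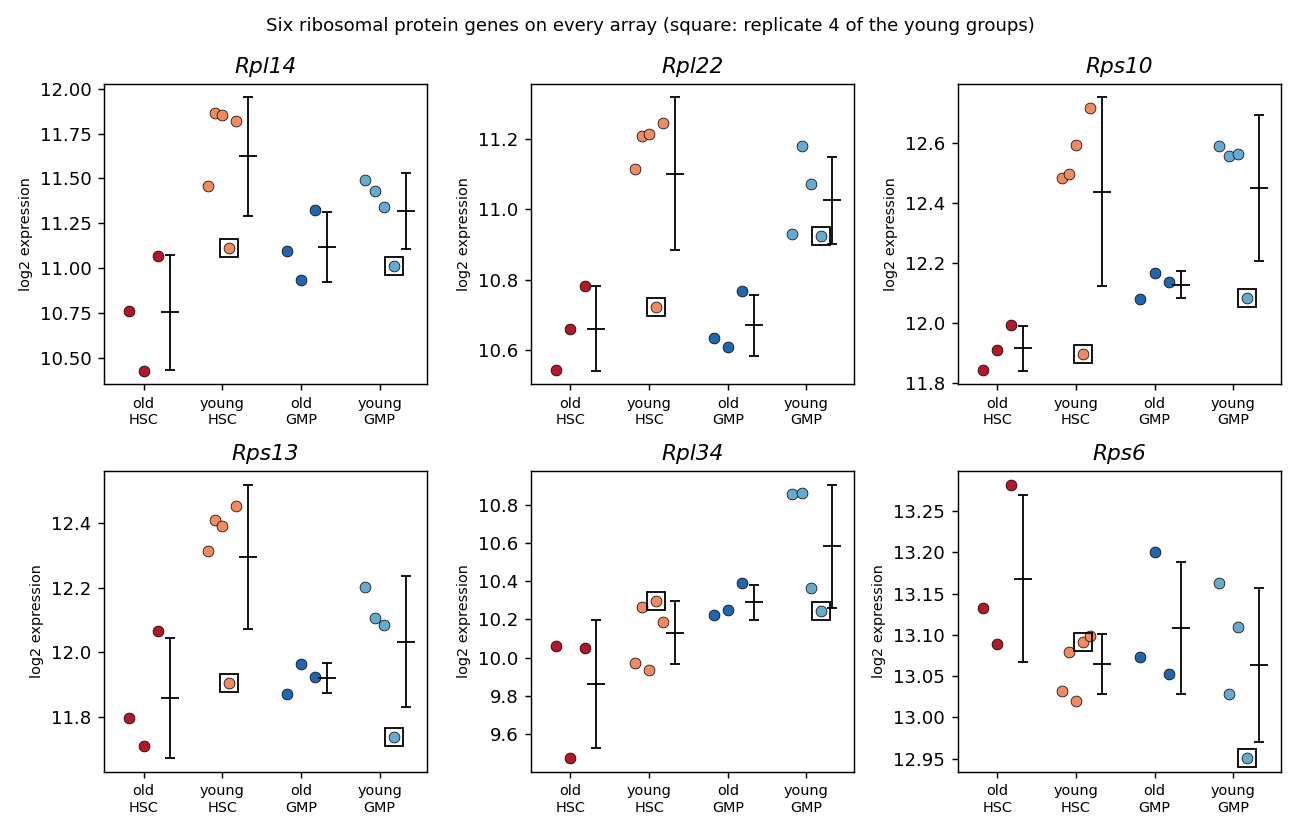
Log2 expression of Rpl14, Rpl22, Rps10, Rps13, Rpl34 and Rps6 on each of the 15 arrays by group; points are arrays, bars show the group mean ± SD, and squares mark replicate 4 of the young groups. Rpl14 is the only one of the 4 genes called lower in old HSC whose HSC groups do not overlap, and replicate 4 of young HSC lies near or among the old arrays in all 4.

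Over the whole set, old and young HSC did not overlap, with old lower, in 3 of the 53 (Rpl14, Rpl4 and Rpl7a), against 7.69% of all genes, and with old higher in 0, against 5.1%. Negative differences were seen in 48 of the 53, with a median of -0.16, against a median of 0.03 over all genes and -0.29 over the brightest 10% of genes. After quantile normalization, which gives every array the same spread, 29 of 53 were negative, the median was -0.0045 and only Rpl14 was called (-0.61 ± 0.12, limma adjusted p = 0.0117), against 3.87% of all genes called lower. With the interquartile range as a covariate, 31 of 53 were negative and 0 were called, where 0.259% of all genes were lower.

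Other members with sizeable differences did not pass the test. Rpl7a, a large-subunit protein, read 8.30, 8.32 and 8.64 in old HSC and 8.74, 9.26, 9.13, 8.72 and 9.34 in young HSC. The groups did not overlap, and the difference was -0.62 ± 0.20 (limma adjusted p = 0.0557). Rpl13, which passed in 5 of the 25 alternatives, read 12.23, 12.26 and 12.13 in old HSC and 12.91, 12.82, 13.05, 11.97 and 13.02 in young HSC. Its difference was -0.55 ± 0.20 (adjusted p = 0.0738), and -0.74 ± 0.14 without young HSC replicate 4 (adjusted p = 0.000854), the array that lay below all old ones. Leaving out this lowest young array had to enlarge the difference. Without that array 14 of the 53 were called lower, where 17.9% of all genes were.

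The members at the other end had differences near 0. Rps6, the small-subunit protein phosphorylated downstream of mTOR, read 13.13, 13.09 and 13.28 in old HSC and 13.03, 13.08, 13.02, 13.09 and 13.10 in young HSC, a difference of 0.10 ± 0.10 (limma adjusted p = 0.469). Only 5 members had a difference above 0: Rps18, Rps20, Rpl23, Rps6 and Rpl29. Of the 49 members not called, 38 had a 95% interval that ended above -0.5 log2 on the lower side, and over all 49 the intervals ran from -1.05 to 0.48. Differences of under 0.25 log2 were found in 39 of the 53 and in 60.5% of all genes.

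**Figure D2:**
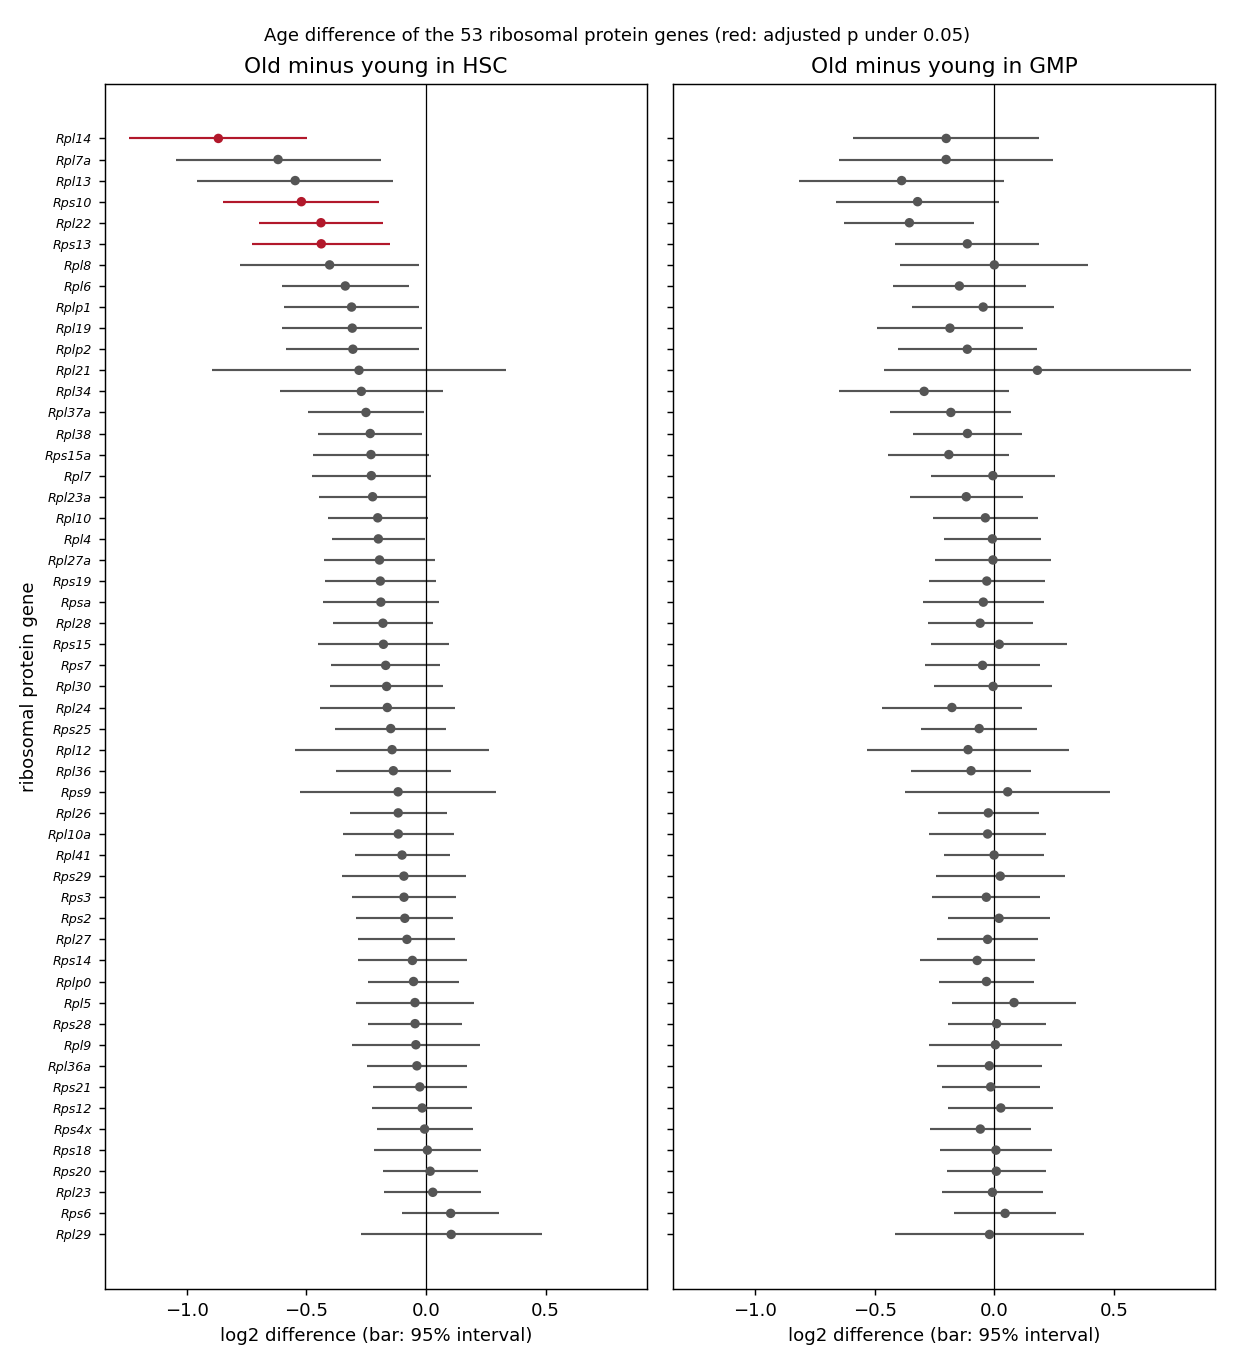
Old minus young log2 difference of each of the 53 ribosomal protein genes in HSC (left) and GMP (right), with 95% intervals, in the order of the HSC difference; red marks adjusted p under 0.05. In HSC 48 points lie left of zero and 4 are red; in GMP 40 lie left of zero and none is red.

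By role, the small subunit had a median difference with age in HSC of -0.09, with 2 of 20 called lower (Rps10 and Rps13). The large subunit had -0.20, with 2 of 33 called lower (Rpl14 and Rpl22). Over all genes 9.22% were called lower, and no test compared the subunits. Members at the entry and decoding site of messenger RNA, 6 of a list of 10, ranged from -0.18 to -0.02 with 0 called.

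The 4 stalk proteins, which recruit the elongation factors, had 0 called, where 9.22% of all genes were lower. Rplp0, the base of the stalk, read 12.95, 12.97 and 13.06 in old HSC against 13.01 to 13.11 in young HSC, a difference of -0.05. Rplp1 and Rplp2 had -0.31 ± 0.14 and -0.31 ± 0.13 (limma adjusted p = 0.128 for both).

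Proteins around the polypeptide exit tunnel, 6 of 10 measured, had a median of -0.23. Rpl22 of this list was the one called, where 9.22% of all genes were lower. Rpl4 was the one besides Rpl14 and Rpl7a whose HSC groups did not overlap. It read 12.89, 12.90 and 13.03 in old mice and 13.12, 13.18, 13.14, 13.04 and 13.22 in young mice. The Rpl4 difference of -0.20 ± 0.09 did not pass (limma adjusted p = 0.147).

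Of the genes mutated in Diamond-Blackfan anaemia or lost in the 5q deletion, 9 of 19 were among the 53. Rps10 was the one called, where 9.22% of all genes were lower. Rps19, the gene most often mutated in that anaemia, read 11.56, 11.66 and 11.66 in old HSC and 11.91, 11.87, 11.91, 11.49 and 11.92 in young HSC (difference -0.19). Rps14, the gene of the 5q syndrome, read 12.90, 12.91 and 13.12 in old HSC and 12.94 to 13.14 in young HSC (-0.06). Rps19 replicate 4 of young HSC lay below every old array, and the Rps14 groups overlapped.

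Rpl5 binds Mdm2 together with Rpl11 and the 5S RNA when ribosome assembly is disturbed, which stabilises p53. Rpl5 read 12.56, 12.28 and 12.71 in old HSC and 12.43 to 12.70 in young HSC, a difference of -0.05. Rpl11, measured only by a probe set that names several genes, differed by -0.09 ± 0.10, with an unadjusted p of 0.363 from limma. Rpl38, which supports translation of Hox messengers, differed by -0.23, from a mean of 13.02 in young to 12.79 in old HSC, and did not pass.

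Within the set, size and sign depended on the probe set. The 53 genes were covered by 171 probe sets, and 36 genes had several, up to 10. Fitted one by one, 24 of the 171 were lower in old HSC, in 16 genes, where 8.98% of all probe sets were lower. The median over the brightest probe set of each gene was -0.16, and over the other 118 it was -0.36. Of these 118, 91 had a lower difference than the brightest of their gene, and 17, in 10 genes, had the opposite sign.

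The difference was smallest where the signal was highest. Member probe sets with a mean of 13 log2 or more, 16 in number, had a median of -0.04, and those from 12.5 to 13 had -0.19. From 12 to 12.5 the median was -0.35, from 10 to 12 it was -0.44 and from 8 to 10 it was -0.48. The 14 below 8 had -0.19, so the order did not go on to the dimmest, and the outer bands hold few probe sets. All probe sets of the table had medians of -0.04, -0.17, -0.25, -0.31 and -0.25 in these bands from the top down to 8, and 0.12 below 8. The highest value in the table was 13.72.

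The 7th probe set of Rpl36 by brightness had the largest difference of the set, from 10.55 in young to 8.84 in old HSC (-1.71 ± 0.49, limma adjusted p = 0.0341), while its brightest differed by -0.14. Rpl10 and Rps25 each had probe sets called in opposite directions. The 5th of Rpl10 was higher in old HSC by 0.85 ± 0.26 (adjusted p = 0.0449) and the third was lower (-0.44 ± 0.14, adjusted p = 0.0494). The 4th of Rps25 was higher by 0.42 ± 0.13 (adjusted p = 0.0469) and the third lower (-0.49 ± 0.14, adjusted p = 0.0345). These probe sets were picked after their values were seen, and which transcripts or copies they detect was not tested. With the mean of a gene's probe sets in place of the brightest, 7 of the 53 were called lower: Rpl14, Rpl22, Rpl36, Rpl6, Rps10, Rps13 and Rps7, where 9.25% of all genes were lower.

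**Figure D3:**
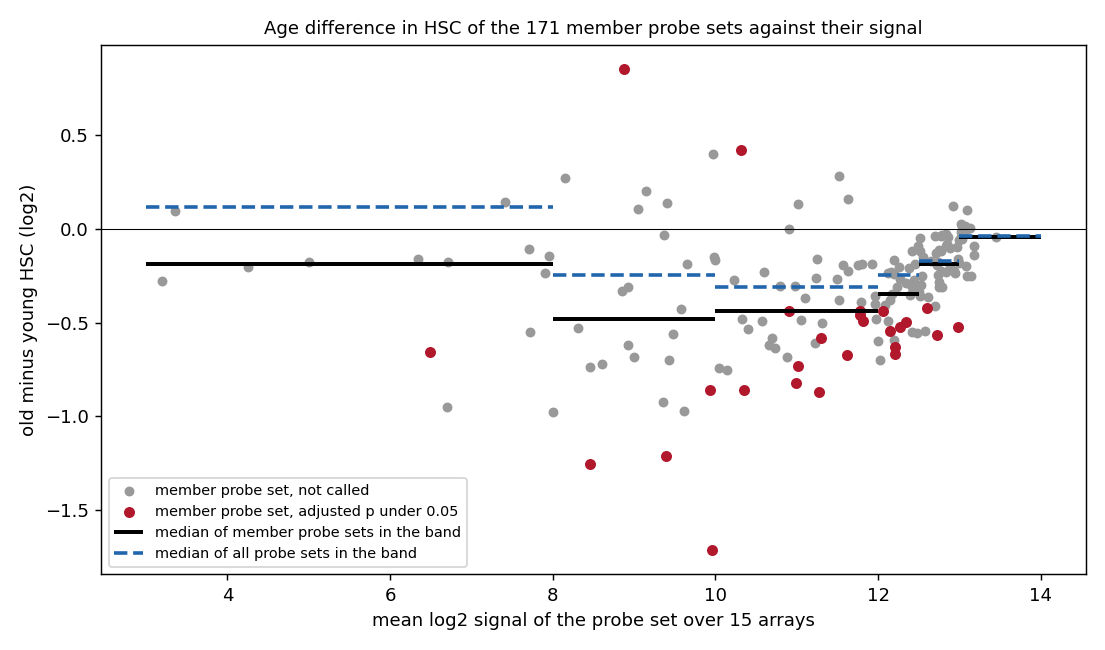
Old minus young HSC log2 difference of the 171 probe sets of ribosomal protein genes against their mean log2 signal over 15 arrays; red points have adjusted p under 0.05, black lines are medians of these probe sets in bands of signal and dashed blue lines medians of all probe sets. The member medians run from -0.48 between 8 and 10 log2 to -0.04 at 13 and above. The medians of all probe sets include these 171.

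The 53 genes moved together between replicate arrays. The first principal component of their deviations from the group means held 54.5% of the variance, against 38.0% over all genes, and all 53 loaded on it with the same sign. Young HSC replicate 4 (-1.85) and young GMP replicate 4 (-1.78) were lowest on it, and young HSC replicate 5 (1.01) was highest. Young GMP replicate 4 was the lowest of its group in 47 of the 53 genes and in 31.2% of all genes. Young HSC replicate 4 was the lowest in 36 of the 53 and in 28.7% of all. In old HSC, replicate 3 was the highest in 44 of the 53. The part of array spread in these deviations was not tested.

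**Figure D4:**
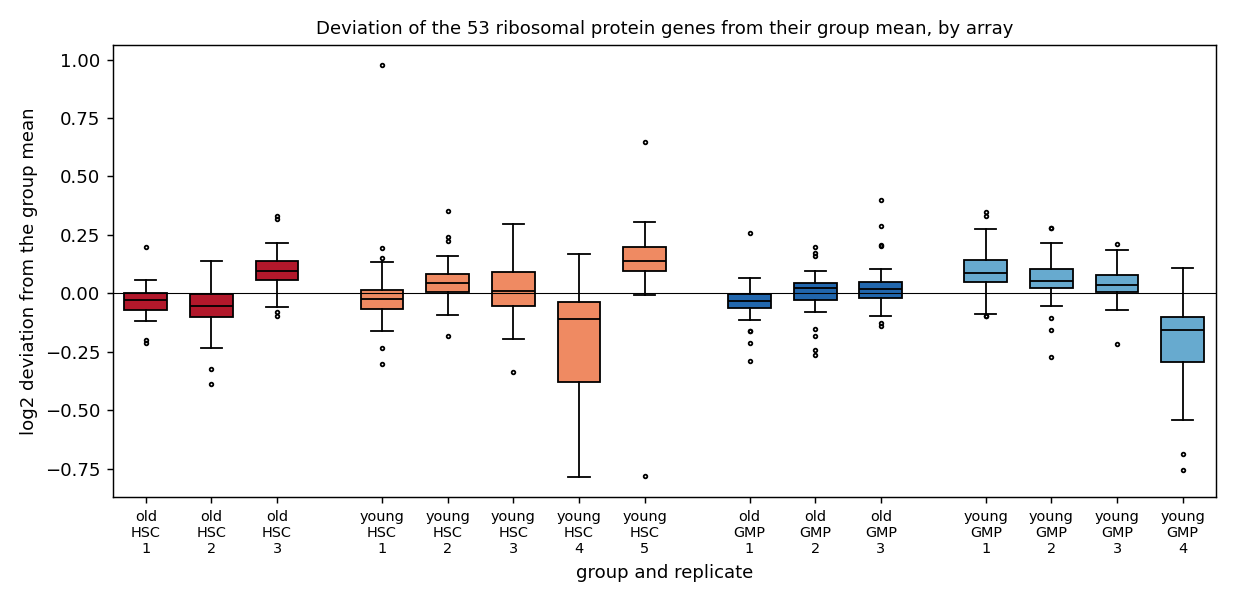
Deviation of the 53 ribosomal protein genes from their group mean on each array, in log2; boxes show the median and quartiles, whiskers reach the last gene within 1.5 interquartile ranges, and points are genes beyond. Replicate 4 of young HSC and of young GMP lie lowest and replicate 5 of young HSC highest.

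In GMP 0 of the 53 were called with age in either direction, and of all genes 0.0% were. The median difference was -0.03, and 40 of 53 were negative. An unadjusted p under 0.05 from limma was found for 1 of them, Rpl22. Old lay below young GMP without overlap in 2 (Rpl22 and Rps15a), against 3.72% of all genes, and above in 0, against 3.1%. The 95% intervals ran from -0.82 to 0.82, the widest being that of Rpl21, and 46 of the 53 ended above -0.5 on the lower side. Rpl13 had the lowest difference, -0.39 ± 0.21, with 12.36, 12.46 and 12.33 in old GMP and 12.89, 12.97, 12.90 and 12.33 in young GMP. Replicate 4 of young GMP lay with the old arrays, and with replicate 4 of both young groups left out Rpl13 was called in GMP (-0.54 ± 0.11, limma adjusted p = 0.0207).

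The age effects of the 2 cell types differed by a median of -0.11 (HSC minus GMP), with 0 of the 53 called, where 0.0933% of all genes were. An age effect limited to HSC was therefore not shown for any ribosomal protein gene. After quantile normalization this median was 0.02.

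Differences between HSC and GMP were mostly small on these probe sets, which lie near the top of the signal range. In young mice the median difference (HSC minus GMP) was 0.02, with 0 of 53 called higher, where 13.6% of all genes were, and 1 called lower, where 10.9% were. In both directions the share of members called was below that of all genes. Of the 53, 43 differed by under 0.1 log2. Such a count depends on signal. Of the other 118 probe sets of these genes, 57 differed by under 0.1. Among all probe sets, members included, 95% did so at 13 log2 or more, 60.6% from 12.5 to 13 and 23.6% from 10 to 12, where 24 of 45 member probe sets did. Small changes of the brightest genes were therefore not shown to be absent. The 52 intervals of genes not called ran from -0.49 to 0.85. The markers of the sort gave the contrast: the 8 measured HSC markers had a median difference of 2.51 and the GMP markers -3.17.

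Rpl34, a large-subunit protein, was the one called. Its log2 values were 9.97, 10.26, 9.94, 10.30 and 10.18 in young HSC and 10.86, 10.86, 10.36 and 10.25 in young GMP, a difference of -0.45 ± 0.15 (n = 5 and 4, limma adjusted p = 0.032). Replicates 1 and 2 of young GMP were the high ones. Replicate 3 (10.36) lay just above the highest young HSC array (10.30), and replicate 4 (10.25) lay inside the HSC range. Leaving out replicate 1 or 2 of young GMP, or replicate 1 or 3 of young HSC, ended the call. In old mice Rpl34 read 10.06, 9.47 and 10.05 in HSC and 10.22, 10.25 and 10.39 in GMP, without overlap, a difference of -0.43 ± 0.18 that did not pass (adjusted p = 0.107). With the young replicate numbers as pairs, Rpl34 was still called (-0.46 ± 0.14, limma adjusted p = 0.0248) and Rpl21, at the bottom of the signal range, was called higher (0.48 ± 0.17, adjusted p = 0.0482).

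In old mice 0 of the 53 were called in either direction, where 13.0% of all genes were lower and 9.25% higher in HSC. The median was -0.06, and 41 of 53 were negative, but after quantile normalization 17 were, with a median of 0.05. Old HSC lay below old GMP without overlap in 12 of the 53 (22.6%), among them Rpl7a (-0.52 ± 0.23, limma adjusted p = 0.126), Rpl34, Rpl8 (-0.41 ± 0.20, adjusted p = 0.168) and Rpl41. Over all genes, 18.4% did so.

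**Figure D5:**
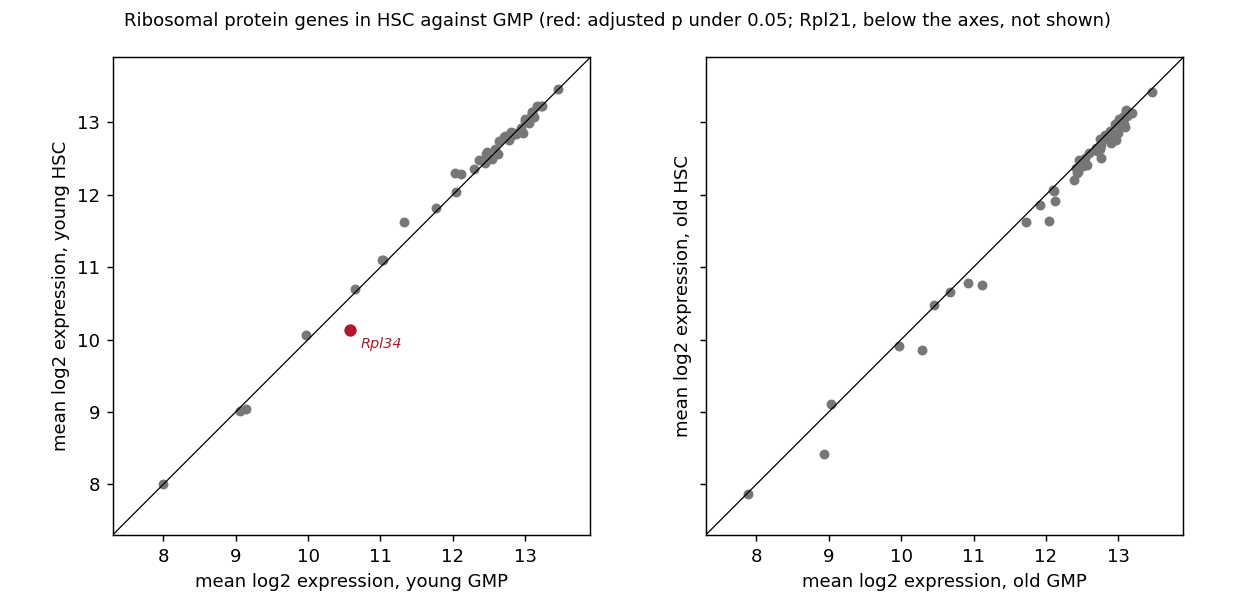
Mean log2 expression of the ribosomal protein genes in HSC against GMP in young mice (left) and old mice (right); each point is a gene, the line marks equal values, and red marks adjusted p under 0.05. Nearly all points follow the line, Rpl34 is the one red point, and Rpl21, with group means of 3.07 to 3.35, lies below the axes.

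The 16 ribosomal proteins measured only by probe sets that name several genes had 0 called in any comparison. Their median difference with age in HSC was -0.18, and 16 of 16 were negative, from -0.63 (Rps27) to -0.01 (Rpl3). In GMP the median was -0.09, and between HSC and GMP it was 0.01 in young and -0.09 in old mice.

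Genes of related machinery are given beside the set. The 77 proteins of the mitochondrial ribosome, a separate particle that translates the messengers of mitochondrial DNA, had a median difference with age in HSC of -0.54. Of the 77, 37 were called lower, where 9.22% of all genes were. In GMP their median was -0.19 with 0 called. Between HSC and GMP in young mice 24 were lower and 1 higher, where 10.9% and 13.6% of all genes were. In old mice 53 were lower, where 13.0% of all genes were. No test compared them with the cytosolic set, and their counts in the alternatives are not given. Over all genes, the share called lower with age in HSC was 3.87% after quantile normalization and 0.259% with the interquartile range as covariate.

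Of 18 measured translation factors with TOP messengers, 3 fell in old HSC (Eif3l, Eif3m and Eif3h), where 9.22% of all genes did. These encode subunits of the initiation factor eIF3, of which the list holds 6, and Eif3k (-0.53 ± 0.18), Eif3f (-0.48 ± 0.17) and Eif3e (-0.42 ± 0.14) did not pass (limma adjusted p = 0.0557, 0.0733 and 0.0598). Eif3l read 10.01, 10.13 and 10.32 in old HSC and 10.97, 11.28, 11.24, 10.16 and 11.14 in young HSC, a difference of -0.81 ± 0.19 (limma adjusted p = 0.0152). The differences of Eif3m and Eif3h were -0.64 ± 0.15 and -0.39 ± 0.12 (adjusted p = 0.0146 and 0.0411). The list's median was -0.33. Eif4a2, a helicase of initiation, was higher in HSC than in GMP in young (0.75 ± 0.11) and old mice (0.66 ± 0.13).

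Of 17 regulators of ribosomal protein synthesis, 1 was called with age in HSC, where 9.22% of all genes were lower. This was Rheb, the small GTPase that activates mTOR. It read 9.02, 8.94 and 9.70 in old and 10.01, 10.17, 10.32, 9.61 and 10.30 in young HSC (-0.86 ± 0.21, limma adjusted p = 0.0171). Larp1, which binds the TOP motif, was lower in HSC than in GMP, with differences of -0.60 ± 0.13 in young and -0.62 ± 0.16 in old mice. Mycn, a transcription factor that drives ribosome production, was higher in HSC by 1.37 ± 0.18 in young and 0.93 ± 0.21 in old mice. Myc was lower in old HSC than in old GMP (-0.53 ± 0.17). In young mice the Myc means were 11.20 in HSC and 11.28 in GMP. Between HSC and GMP, 1 of the 17 was called lower and 2 higher in young mice, where 10.9% and 13.6% of all genes were. In old mice 5 were lower and 1 higher in HSC, where 13.0% and 9.25% of all genes were.

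Rps27l, a p53-induced relative of Rps27, was the one of 7 measured relatives that was called. It read 9.93, 9.77 and 10.39 in old HSC and 10.49, 10.96, 11.00, 10.24 and 11.22 in young HSC. In GMP the values were 11.07, 11.21 and 11.28 for old and 11.86, 11.70, 11.71 and 11.21 for young mice. It fell with age in HSC (-0.75 ± 0.20, limma adjusted p = 0.0233) and was lower in HSC than in GMP in young (-0.84 ± 0.18) and old mice (-1.16 ± 0.22). Over all genes, 9.22%, 10.9% and 13.0% were lower in these comparisons. In sorted bulk samples, fewer cells that carry a messenger and less of it per cell cannot be told apart.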

How the data were processed

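Expression was measured on 15 arrays. The deposited table holds log2 values for 23309 probe sets with 0 missing. The authors made them with RMA, per the submitters' processing notes, which also name affy and limma without versions. The genome build is not given in the sources used here. Per the labels' protocols, cells were sorted in a double pass and RNA was amplified with a NuGEN whole-transcript kit. The precision of each value is limited by the number of arrays.

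Probe sets with 1 gene symbol (20728) gave 19296 genes. Those with several (1174) or none (1407) were left out. R 4.3.3 and limma 3.58.1 fitted a mean per group over all 15 arrays with empirical Bayes moderation. The fit was checked on simulated data with noise that was independent between genes and arrays. That check does not cover deviations that genes share on an array. Differences were old minus young, HSC minus GMP, and the difference of the age effects. The members and gene lists were chosen with earlier results of these data known.

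Genes were named by a rule: called members whose groups do not overlap, up to 3 called (or 2 uncalled) per role list, a fixed set (Rpl5, Rpl11, Rpl22, Rpl38, Rps6, Rps14, Rps19, Rplp0, Rpsa, Rps4x, Rpl10 and some relatives), and members at the extremes of level or spread. Rps13, Rpl7a, Rpl13 and Rpl8, and members named from an alternative, were chosen after their values were seen. Alternatives covered normalization, array spread, dim genes, the choice of probe set, the arrays in the fit, moderation, array weights, the replicate block and each array left out.

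Same-numbered young HSC and young GMP arrays deviated together over all genes (correlations of 0.29, 0.23, 0.16 and 0.52). Some arrays of different number did so too. Young HSC replicate 2 gave 0.247 with young GMP replicate 1, against 0.235 with replicate 2. Young HSC replicate 3 gave 0.139 with young GMP replicate 2, against 0.161 with replicate 3. Xist was low in replicate 1 of both groups and high in the other 3. A pairing by number is read from the data, since the labels do not state it. Each other comparison gave at least 1 same-numbered correlation of 0.09 or less, though replicate 3 of old HSC and of old GMP gave 0.42.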

Additional observations from a re-analysis of the deposited data

Results flagged for a closer look

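In groups of 4 or 5 arrays, 108 values (the 53 genes and their median in young HSC and in young GMP) were examined for an array far from the others of its group, measured as its gap to the nearest array over the group's range. Chance flags about 1 in 20 of independent values, and 24 stood out. The 53 genes moved together between arrays, so the 24 are not separate events and cannot be set against that rate. Young HSC replicate 4 stood low for Rpl10 (12.75), Rpl12 (7.25), Rpl13 (11.97), Rpl22 (10.72), Rpl24 (12.66), Rpl38 (12.83), Rpl8 (11.58), Rps10 (11.90), Rps13 (11.90) and Rps19 (11.49). Young HSC replicate 5 stood high for Rps15 (13.00), Rps20 (13.15) and Rps29 (13.35). Young GMP replicate 4 stood low for Rpl12 (7.67), Rpl13 (12.33), Rpl24 (12.75), Rpl41 (12.86), Rpl7a (8.45), Rpl8 (11.51), Rps10 (12.08), Rps14 (12.75), Rps18 (12.95), Rps9 (11.60) and Rpsa (12.17). Rpl12, Rpl13, Rpl24, Rpl8 and Rps10 stood low on replicate 4 of both groups. The interquartile range of these arrays was 2.11 in young HSC and 2.03 in young GMP, the lowest of their groups, and macrophage markers averaged 7.42 on young HSC replicate 4 against 6.56 to 6.75 on the others of its group. The part of either in these values was not tested.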

How the results depend on the processing

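The 4 ribosomal protein genes called lower with age in HSC became 1 under quantile normalization, 0 with the interquartile range as covariate, 7 with the mean of probe sets, 1 with only the HSC arrays in the fit, 28 with array weights, 13 with the replicate block and 16 without both young replicates 4; with 1 array left out the count ran from 0 to 14. All genes called with age in HSC, 2213 in the main setting, were 1305, 106, 871 (HSC arrays only), 8966 (array weights), 6280 (replicate block) and 6183 (both replicates 4 out), and 345 to 5312 with 1 array left out. Those totals count both directions. Genes called lower were 9.22% of all in the main setting, 3.87% (quantile), 0.259% (covariate) and 9.25% (mean of probe sets). The members' median of -0.16 moved to -0.0045 (quantile) and -0.023 (covariate). For age in GMP, all genes called went from 0 to 832 with array weights, 232 with the replicate block, 188 without both replicates 4 and 0 to 12 with 1 array out, and members called lower to 3, 2 and 1. For HSC against GMP in young mice, members called higher went from 0 to 3 (quantile), 2 (array weights), 1 (replicate block within each age, an alternative chosen after seeing the data) and 0 to 2 with 1 array out, and those lower from 1 to 0 or 1. In old mice, members called lower went from 0 to 1 (only the groups compared), 9 (array weights), 2 (replicate block), 3 (replicate block within each age), 2 (both replicates 4 out) and 0 to 1 with 1 array out, and all genes called from 4292 to 7494 with array weights. For the difference of the age effects, the 18 genes called became 5 (quantile), 11 (covariate), 2407 (array weights), 41 (replicate block), 145 (both replicates 4 out) and 1 to 192 with 1 array out; members went from 0 to 1 with array weights, and their median from -0.11 to 0.0197 under quantile normalization. With array weights, old HSC replicate 1 had a weight of 7.47, against 0.41 and 0.49 for replicates 2 and 3. The weighted old HSC values thus rest mostly on replicate 1. The cause of these moves was not tested. The labels state no pairing for any comparison. Same-numbered old HSC and old GMP arrays had correlations of 0.05, 0.23 and 0.42 over all genes. Whether they share mice is not known. The genes called lower in young HSC under the replicate block included Rpl34, as in the main setting. For HSC against GMP, all-gene counts are not given for most alternatives, so the member counts there cannot be set against a share.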
